A study of Sus scrofa with 12 samples.

Results

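Fibronectin and the matricellular proteins are secreted proteins of the extracellular matrix. The genes described here were chosen by name, as the rows of the count table whose gene symbol was FN1, TNC, TNXB, POSTN, THBS1, THBS2, SPARC, CCN3, CCN4 or CCN5. All 10 had a row, among 31908 genes in the table, and all 10 were among the 13216 genes that passed the filter on low counts and were tested. The libraries came from primary porcine aortic valve interstitial cells (paVICs), the fibroblast-like cells that fill the valve leaflet, with the genotype given as WT. Each of 3 separate isolations of cells, pooled from the valves of several hearts, supplied 1 library to each of 4 groups (n = 3 per group, 12 libraries). Isolation numbers below are the replicate numbers of the labels, taken to mark the same isolation in every group. All cells had been frozen, thawed, expanded on plastic and moved to low-serum medium, and all were treated for 24 h. The vehicle group received 0.6% DMSO with 0.1% EtOH. The LPC group received 10 µM lysophosphatidylcholine, a lipid of oxidized low density lipoprotein that is used to induce calcification in these cells, with 0.6% DMSO. The dantrolene group received 60 µM dantrolene, a muscle relaxant that blocks the ryanodine receptor calcium channel of the endoplasmic reticulum, with 0.1% EtOH. The LPC+dantrolene group received 10 µM LPC and 60 µM dantrolene together.

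Fibronectin, encoded by FN1, is assembled by cells into fibrils that tie the cell surface to collagen through integrins. Matricellular proteins differ from structural matrix proteins in that they mainly modulate how cells read the matrix, by binding integrins, collagens, proteases and growth factors such as TGF-beta. In the aortic valve the interstitial cells make most of the matrix, and when they are activated as myofibroblasts they raise their output of fibronectin and of several matricellular proteins.

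The libraries held between 16489684 and 24105935 counts, and 3 counts in a library were worth 0.114 to 0.186 CPM, the unit of all levels here (counts scaled to a common library size), which limits the precision of the markers with few counts below. The 10 genes together took 2.93% to 4.79% of all counts in a library. Of 10 fibroblast and interstitial cell markers, all were tested, with COL1A2 between 12573 and 28024 CPM. The endothelial markers summed to between 106 and 174 CPM. PTPRC and CD3E of the leukocytes and TNNT2 of the cardiomyocytes were at 0 counts in every library. Other leukocyte markers were detected, with CD14 at 10.3 to 24.5 CPM and CD68 at 0.760 to 3.17 CPM. The leukocyte markers summed to between 12.6 and 28.8 CPM. The LPC+dantrolene library of isolation 2 stood apart from the rest: its mean correlation of log2 CPM with the other libraries was 0.922, against 0.941 to 0.962 for the remaining libraries, its normalization factor of 0.863 was the lowest, and its share of counts in the 10 most abundant genes, 17.1%, was the highest. For the 10 genes, counts of calls in LPC+dantrolene compared to vehicle and to LPC are given with and without this library. Other counts that use it are given with it unless stated.

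In RefSeq's annotation of Sscrofa11.1, 7 of the 10 symbols were found. FN1 (ENSSSCG00000016174) lay at chr15:117658158-117737145 and SPARC (ENSSSCG00000017082) at chr16:71368164-71380972. TNC (ENSSSCG00000005494), THBS1 (ENSSSCG00000004789) and THBS2 (ENSSSCG00000004012) were all on chromosome 1, at chr1:255533235-255630381, chr1:131728781-131746098 and chr1:854473-882467. POSTN (ENSSSCG00000009361) lay at chr11:13225183-13258973 and TNXB (ENSSSCG00000023611) at chr7:24088873-24155815. The TNXB interval overlapped ATF6B and CYP21A2, and those of POSTN and SPARC each overlapped 1 locus that has no gene name. Since the strand setting of the counting was not given, reads from such overlaps cannot be told apart, and the TNXB level in particular is uncertain. CCN3 (ENSSSCG00000006002), CCN4 (ENSSSCG00000005946) and CCN5 (ENSSSCG00000031648) were not matched by symbol and are given by their identifiers alone.

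**Figure D1:**
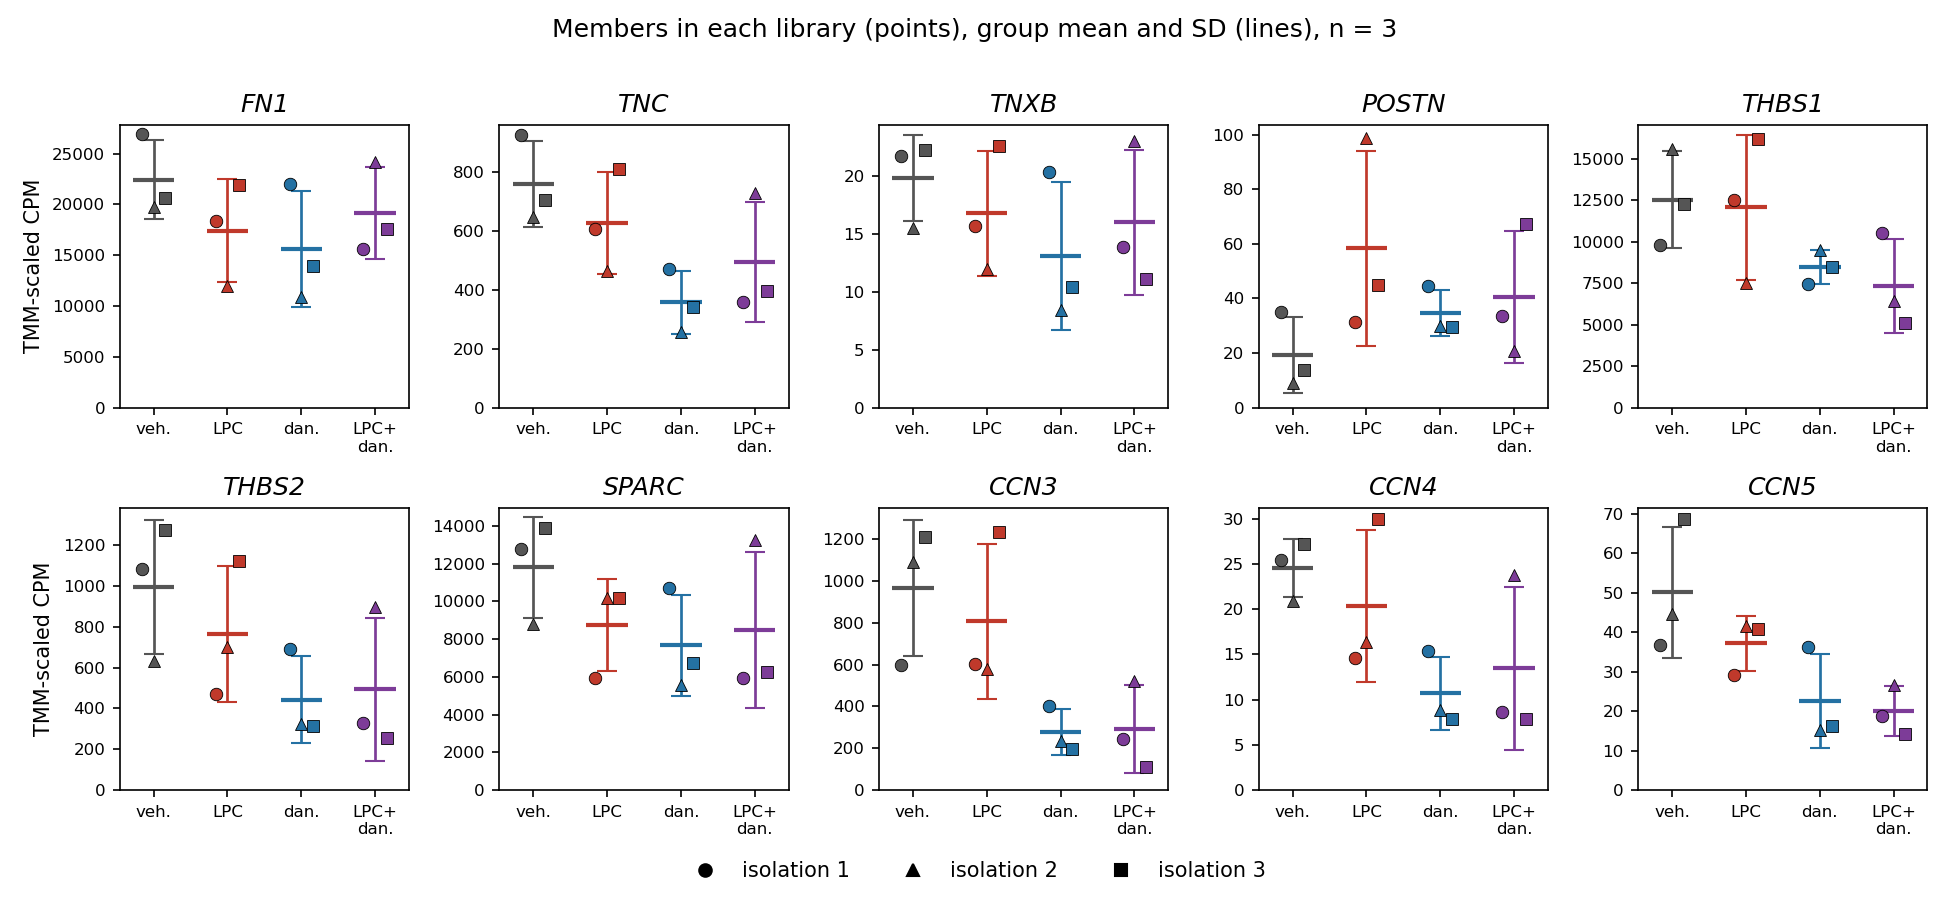
Level of each of the 10 genes in every library, in CPM scaled by TMM (the trimmed mean of M values, a normalization factor per library), on linear axes that start at 0. Points are the 3 isolations, horizontal lines the group means and bars the SD (n = 3). The vehicle mean was the highest of the 4 group means for 9 of the 10 genes and the lowest for POSTN, and CCN3 shows both dantrolene groups below vehicle in every isolation.

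The vehicle mean was the highest of the 4 group means for every gene except POSTN, for which it was the lowest. The distance between the highest and the lowest group mean ran from 1.44-fold for FN1 to 3.50-fold for CCN3. Groups that were neighbours in this order overlapped in their ranges for every gene, with CCN3 as the exception, since its LPC and LPC+dantrolene libraries did not overlap. Because bulk RNA was measured, fewer cells of a type and less RNA per cell cannot be told apart in any of these differences.

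FN1 was at 22456 ± 3937 CPM (SD, n = 3) in vehicle, 17402 ± 5065 with LPC, 15633 ± 5706 with dantrolene and 19149 ± 4500 with LPC+dantrolene. These ranges overlapped in every comparison, and no FN1 difference passed the test. The 95% interval of the log2 fold change against vehicle was −1.01 to 0.27 for LPC, −1.16 to 0.12 for dantrolene and −0.87 to 0.41 for LPC+dantrolene, and these bounds are the changes that the 3 isolations leave possible. SPARC, a collagen-binding glycoprotein that takes part in matrix assembly, was at 11808 ± 2665, 8754 ± 2438, 7664 ± 2690 and 8492 ± 4152 CPM in the same order of groups, and also passed no test. Its log2 fold change with dantrolene was −0.62 (95% interval −1.29 to 0.04, adjusted p = 0.364).

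The question put by the LPC group was what the lipid alone does to these cells. Compared to vehicle, 1 of the 10 genes was called with LPC: POSTN was higher, and no other gene passed the test in either direction. Periostin, its product, binds collagen and promotes the assembly of collagen fibrils. POSTN stood at 35.1, 8.88 and 13.7 CPM in vehicle isolations 1, 2 and 3, and at 31.4, 98.9 and 44.9 CPM with LPC. The groups overlapped, since isolation 1 had similar levels in both and the rise came from isolations 2 and 3. The log2 fold change was 1.60 (SE 0.39), a 3.03-fold rise, with an adjusted p of 0.00188 by the quasi-likelihood test of edgeR, where all p-values were adjusted over every tested gene by the Benjamini-Hochberg method, in the same direction in 2 of 3 isolations. Among all genes tested, 8.54% were called higher with LPC and 0.144% lower, and 1 of 10 is near the first of these shares.

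The POSTN call was lost in 3 of 20 alternatives. Without LPC replicate 2 its log2 fold change was 0.99 with an adjusted p of 0.316, without vehicle replicate 2 it was 1.26 with an adjusted p of 0.117, and with DESeq2's Wald test on all libraries the adjusted p was 0.118. POSTN with dantrolene was at 44.5, 29.8 and 29.5 CPM (log2 fold change 0.84, adjusted p = 0.208), and with LPC+dantrolene at 33.6, 20.6 and 67.3 CPM (log2 fold change 1.07, adjusted p = 0.0771). Neither passed the test, and both groups overlapped vehicle through the vehicle library of isolation 1.

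The remaining 9 genes all had log2 fold changes below 0 with LPC, from −0.43 for SPARC to −0.05 for THBS1, none past the threshold. The median over the 10 genes was −0.27, while the median over all tested genes was −0.18 with TMM scaling and near 0 (−0.0023) with total counts alone. None of the 10 had LPC and vehicle ranges apart with LPC lower, where 10.6% of all tested genes did.

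**Figure D2:**
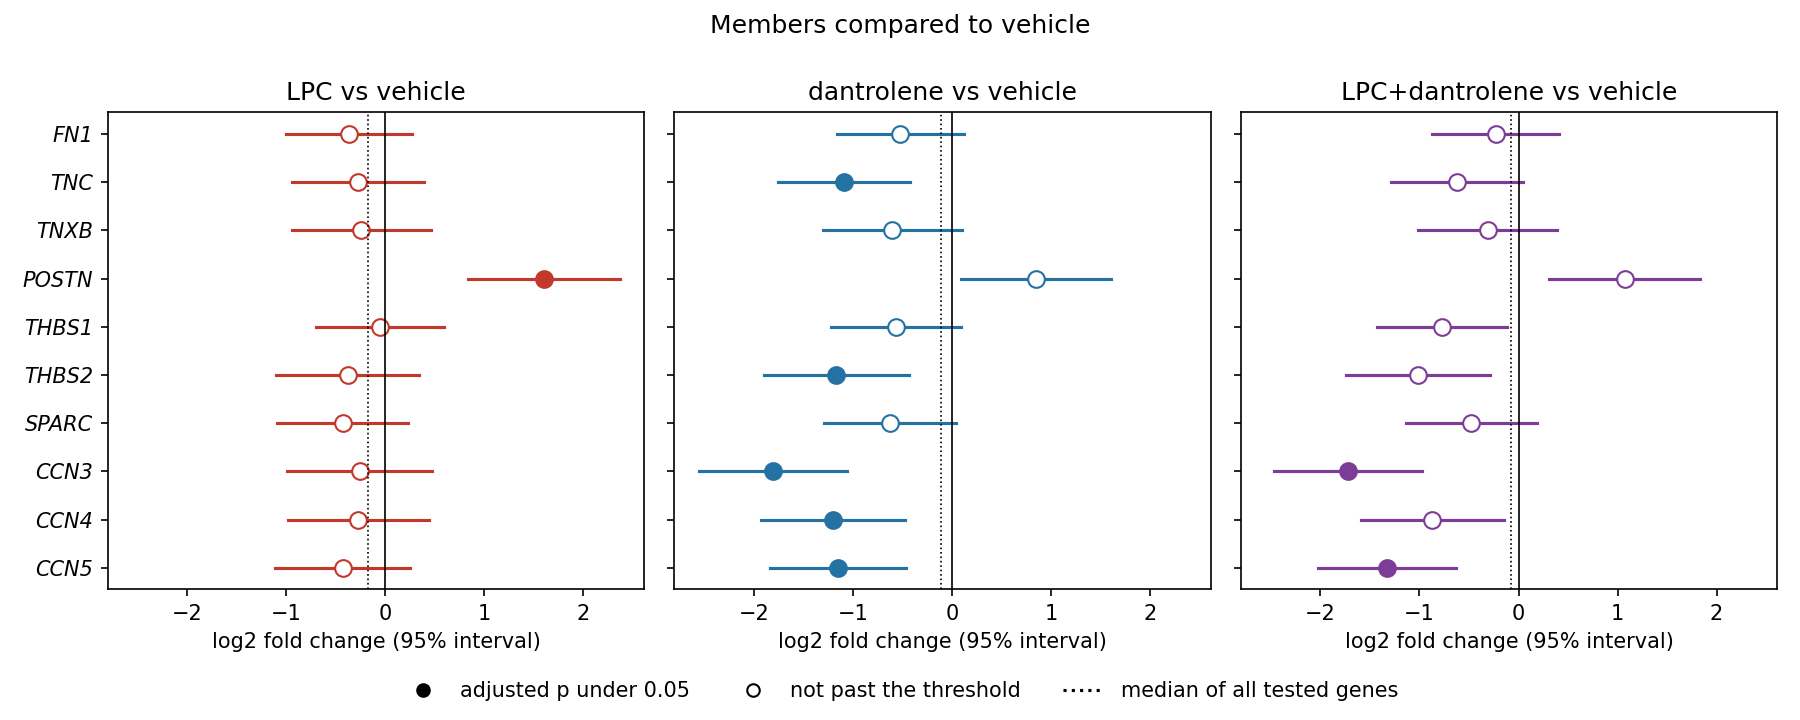
Log2 fold change of each gene against vehicle for the 3 treated groups (x axis), with 95% intervals as horizontal lines. Filled points passed an adjusted p of 0.05, and the dotted line is the median of all tested genes. With dantrolene 5 genes are filled on the left, with LPC+dantrolene 2, and with LPC POSTN alone is filled, on the right.

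The dantrolene group shows what the drug did without LPC. Compared to vehicle, 5 of the 10 genes were significantly lower and none was significantly higher: CCN3, CCN4, CCN5, TNC and THBS2. Among all genes tested, 1.26% were called lower and 7.54% higher. The median log2 fold change of the 10 genes was −0.86, beside −0.11 for all tested genes. With library totals as the only scaling, the median of all genes moved to 0.13, and with it 4 of the 5 calls were lost, leaving CCN3. The normalization factors, which differ between these scalings, were 0.879 to 0.918 in vehicle and 1.01 to 1.09 in dantrolene, and their part in the result was not tested apart from that alternative. Fitting the isolation as a block also left CCN3 as the 1 gene called.

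The CCN genes encode modular secreted proteins that bind integrins and growth factors. CCN3, also known as NOV, is a member of this family that counteracts several actions of CCN2 in fibroblasts. It stood at 597, 1089 and 1211 CPM in vehicle isolations 1, 2 and 3, and at 399.8, 233 and 194 CPM with dantrolene. All 3 dantrolene libraries were below all 3 vehicle libraries, and the difference in log2 CPM within an isolation was smaller in isolation 1, at −0.58, than in isolations 2 and 3, at −2.22 and −2.64. The log2 fold change was −1.81 (SE 0.38, adjusted p = 0.000344), which is 3.50-fold lower. This call was kept in 20 of 20 alternatives, with an adjusted p between 9.8e-06 and 0.0398 and a log2 fold change between −2.11 and −1.56.

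CCN4, also known as WISP1, is a Wnt-responsive member of the family, and was at a low level, 25.5, 21.0 and 27.3 CPM in vehicle against 15.3, 8.88 and 7.91 CPM with dantrolene. The ranges did not overlap. The log2 fold change was −1.20 (SE 0.37, adjusted p = 0.0220). CCN5, which lacks the C-terminal module of the other members, was at 36.8, 44.6 and 68.6 CPM in vehicle and at 36.3, 15.1 and 16.3 CPM with dantrolene. Its ranges were apart by a narrow margin, since isolation 1 was at nearly the same level in both groups and the fall came from isolations 2 and 3 (log2 fold change −1.15, SE 0.35, adjusted p = 0.0206).

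Tenascin-C, encoded by TNC, is a large glycoprotein that loosens cell adhesion and is laid down in remodelling tissue. TNC was at 927, 649 and 705 CPM in vehicle and at 473, 257 and 343 CPM with dantrolene. The ranges did not overlap, and the difference in log2 CPM was −0.97, −1.34 and −1.04 in isolations 1, 2 and 3, for a fitted log2 fold change of −1.09 (SE 0.34, adjusted p = 0.0248). Thrombospondin-2, encoded by THBS2, limits vessel growth and takes part in collagen fibril assembly. THBS2 was at 1085, 631 and 1274 CPM in vehicle and at 689.6, 325 and 316 CPM with dantrolene. Here the groups overlapped, as dantrolene isolation 1 was above vehicle isolation 2, although each isolation fell (log2 fold change −1.17, SE 0.37, adjusted p = 0.0290).

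These 4 genes were called less firmly than CCN3. With the isolation as a block their adjusted p values were 0.0549 for TNC, 0.0662 for CCN5, 0.0753 for CCN4 and 0.0963 for THBS2, at log2 fold changes that stayed between −1.10 and −1.19. Leaving out dantrolene replicate 2, dantrolene replicate 3 or vehicle replicate 3 each ended all 4 calls. TNC and CCN5 were each called in 13 of 20 alternatives, and CCN4 and THBS2 each in 11. No alternative turned the direction of any of them.

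Of the genes that did not pass, THBS1, whose product activates latent TGF-beta, had ranges apart: 9776, 15577 and 12292 CPM in vehicle, and 7445, 9518 and 8471 CPM with dantrolene (log2 fold change −0.57, 95% interval −1.22 to 0.09, adjusted p = 0.428). TNXB encodes tenascin-X, a partner of collagen fibrils, and was at 19.8 ± 3.73 CPM in vehicle and 13.1 ± 6.40 with dantrolene, with overlapping ranges (log2 fold change −0.60, adjusted p = 0.433). In all, 5 of the 10 genes had dantrolene and vehicle ranges apart with dantrolene lower, beside 11.0% of all tested genes. Between each dantrolene library and the vehicle library of its isolation, 9 of the 10 genes were lower in all 3 isolations with TMM scaling, and POSTN was higher in all 3. In isolation 1 the difference in log2 CPM was small for CCN5, at −0.02, and for TNXB, at −0.09. Directions this close to 0 depend on the scaling. The share of all tested genes lower in all 3 isolations was not computed.

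Markers of other states of these cells moved with dantrolene too. The 6 myofibroblast and smooth muscle markers summed to 23075 to 35464 CPM in vehicle and 15647 to 23054 CPM with dantrolene, with DES, which encodes the filament protein desmin, called lower (log2 fold change −1.30, adjusted p = 0.0117). The endothelial markers summed to 141 to 174 CPM in vehicle and 122 to 126 CPM with dantrolene. Of 8 tested markers 1 was called lower, CDH5 (log2 fold change −1.20, adjusted p = 0.0111). ERG at 39.7 to 87.2 CPM, PECAM1 at 23.7 to 44.2 CPM and TIE1 at 5.31 to 11.3 CPM were also detected in every library. VWF, TEK, EMCN and CLDN5 stayed at or under 3.89 CPM and KDR at or under 0.238 CPM in every library. The part of these markers in the lower level of the matricellular genes was not tested.

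**Figure D3:**
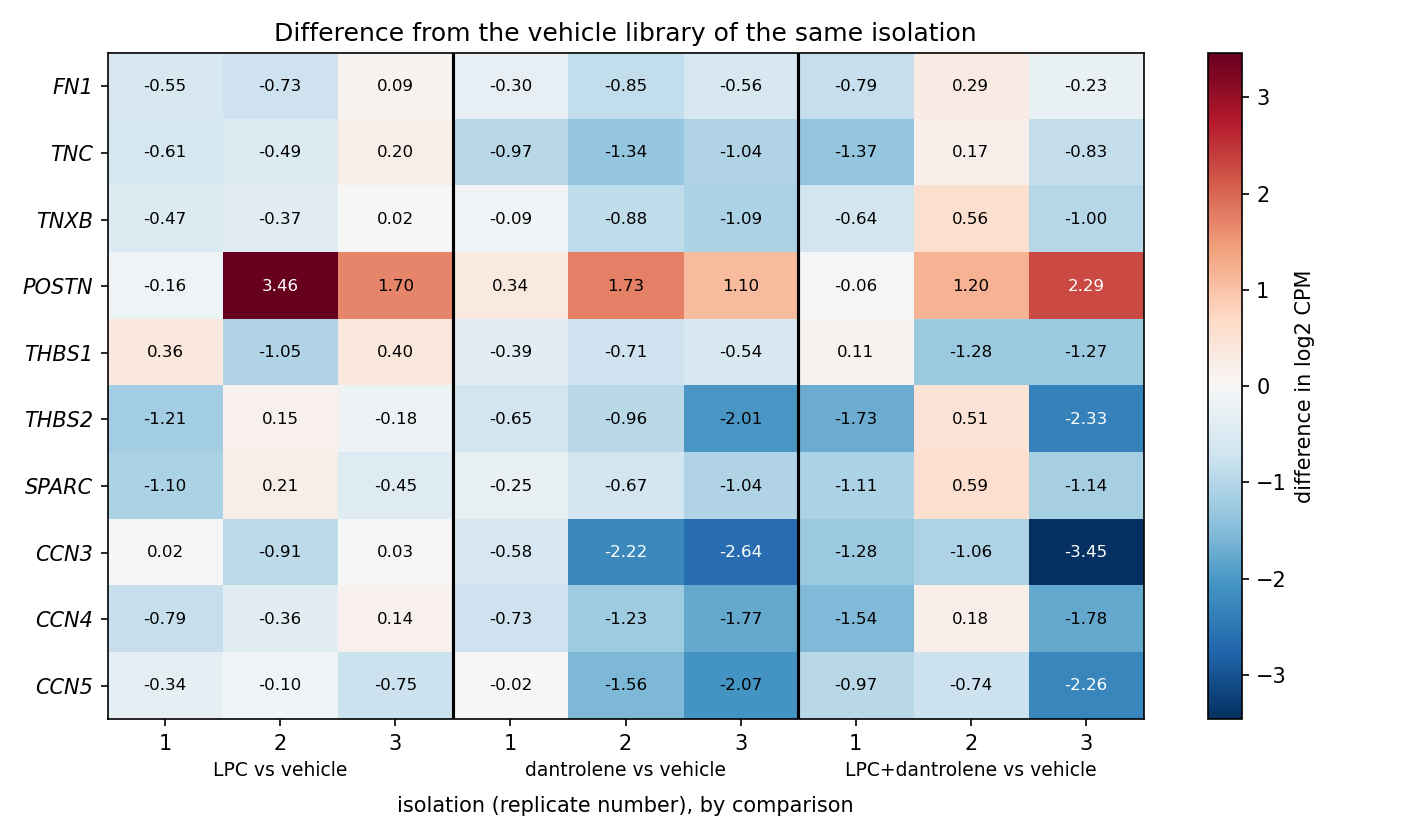
Difference in log2 CPM between each treated library and the vehicle library of the same isolation, by gene (rows) and by comparison and isolation (columns); blue is lower and red is higher than vehicle. The dantrolene block is below 0 for 9 genes in each isolation, with CCN5 at −0.02 and TNXB at −0.09 in isolation 1. In the LPC+dantrolene block isolation 2 is red for FN1, TNC, TNXB, THBS2, SPARC and CCN4, which are blue in isolations 1 and 3.

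The LPC+dantrolene group answers whether cells given LPC and the drug together differed from vehicle. CCN3 and CCN5 were significantly lower, and the other 8 genes did not pass the test. Over all genes tested, 0.900% were called lower and 6.23% higher. This comparison used the same 3 vehicle libraries as those above, so its values are not independent of them. CCN3 was at 246, 521 and 111 CPM with LPC+dantrolene, all below the lowest vehicle library at 597 CPM (log2 fold change −1.72, SE 0.38, adjusted p = 0.000699), and the call was lost in 1 of 20 alternatives, DESeq2's Wald test, with an adjusted p of 0.0678. CCN5 was at 18.8, 26.7 and 14.2 CPM, all below the lowest vehicle library at 36.8 CPM (log2 fold change −1.33, SE 0.35, adjusted p = 0.00627). Its call was lost without vehicle replicate 3 (adjusted p = 0.165), without LPC+dantrolene replicate 3 (adjusted p = 0.112), and when only these 2 groups were fitted (adjusted p = 0.0666). CCN3 and CCN5 were the 2 genes of the 10 with LPC+dantrolene and vehicle ranges apart, beside 5.74% of all tested genes with LPC+dantrolene lower.

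Isolation 2 differed from the other isolations here. In it, 7 genes were higher than in the vehicle library of the same isolation. POSTN was higher by 1.20 on the log2 scale there, and by 2.29 in isolation 3. The other 6 were higher by 0.17 for TNC, 0.18 for CCN4, 0.29 for FN1, 0.51 for THBS2, 0.56 for TNXB and 0.59 for SPARC, whereas each of these 6 was lower in isolations 1 and 3. THBS2, for example, was at 328 and 253 CPM in isolations 1 and 3 and at 898 CPM in isolation 2. This is the library that stood apart above. Without it, 6 of the 10 genes were called lower in LPC+dantrolene and POSTN was called higher, with 2.89% of 13583 tested genes lower and 12.6% higher in that fit. The genes added were THBS2 (log2 fold change −1.72, adjusted p = 0.000136), CCN4 (−1.51, adjusted p = 0.000539), TNC (−0.95, adjusted p = 0.0236) and SPARC (−0.90, adjusted p = 0.0363), and POSTN had 1.43 (adjusted p = 0.00249). The myofibroblast markers had the same spread, 9484 to 32841 CPM summed in the LPC+dantrolene libraries, and went from 1 to 6 of 6 called lower without this library. Their part in this was not tested.

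The comparison of LPC+dantrolene with LPC asked what the drug changed in cells given LPC. CCN3 alone was called, and lower: at 604, 581 and 1232 CPM with LPC against 246, 521 and 111 CPM with LPC+dantrolene, with ranges apart and a log2 fold change of −1.46 (SE 0.37, adjusted p = 0.0427). Across all tested genes 0.288% were called lower and 0.219% higher. Between libraries of one isolation, the difference in log2 CPM was −1.30, −0.16 and −3.47 in isolations 1, 2 and 3. The call did not hold in 14 of 20 alternatives, among them the isolation as a block (adjusted p = 0.208), library totals alone (adjusted p = 0.138) and DESeq2's Wald test (adjusted p = 0.483), while the log2 fold change stayed between −2.19 and −1.02. CCN5 also had ranges apart, at 29.1, 41.5 and 40.9 CPM with LPC and 18.8, 26.7 and 14.2 CPM with LPC+dantrolene, without passing the test (log2 fold change −0.90, 95% interval −1.59 to −0.21, adjusted p = 0.424). Without LPC+dantrolene replicate 2, 3 of the 10 genes were called lower: CCN3, THBS2 (log2 fold change −1.41, adjusted p = 0.0208) and CCN4 (−1.31, adjusted p = 0.0307). In that fit 0.641% of 13583 tested genes were called lower and 0.39% higher.

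Dantrolene alone against LPC alone also gave CCN3 as the single call, with the dantrolene libraries below the lowest LPC library at 581 CPM (log2 fold change −1.55, SE 0.37, adjusted p = 0.0352). Of all tested genes, 0.212% were lower and 0.113% higher. This call was lost in 12 of 20 alternatives, including the isolation as a block (adjusted p = 0.282). This comparison shares the LPC libraries with the one before it. In it all 10 genes had log2 fold changes below 0, with a median of −0.74, beside 0.016 over all tested genes. At an unadjusted p under 0.05 in edgeR's fit, 6 of the 10 were lower. The share of all tested genes at that unadjusted threshold was not computed.

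Adding LPC to dantrolene left 0 of the 10 genes past the threshold in edgeR's fit, 0 at an unadjusted p under 0.05 and 0 with DESeq2, with 0.0151% of all genes called higher and 0.00757% lower. The log2 fold changes ran from −0.21 for THBS1 to 0.47 for TNC (95% interval −0.19 to 1.14). The interaction of LPC and dantrolene, the difference between the effect of LPC with the drug and without it, was called for 0 of the 10 by edgeR and by DESeq2 and had an unadjusted p under 0.05 for 1, POSTN, while 0.159% of all tested genes had a positive and 4.49% a negative interaction. POSTN's interaction was −1.37 (SE 0.54, 95% interval −2.44 to −0.31), with an unadjusted p of 0.0123 in edgeR's fit and an adjusted p of 0.147. It was called in 2 of 19 alternatives, without vehicle replicate 1 and without LPC+dantrolene replicate 3.

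**Figure D4:**
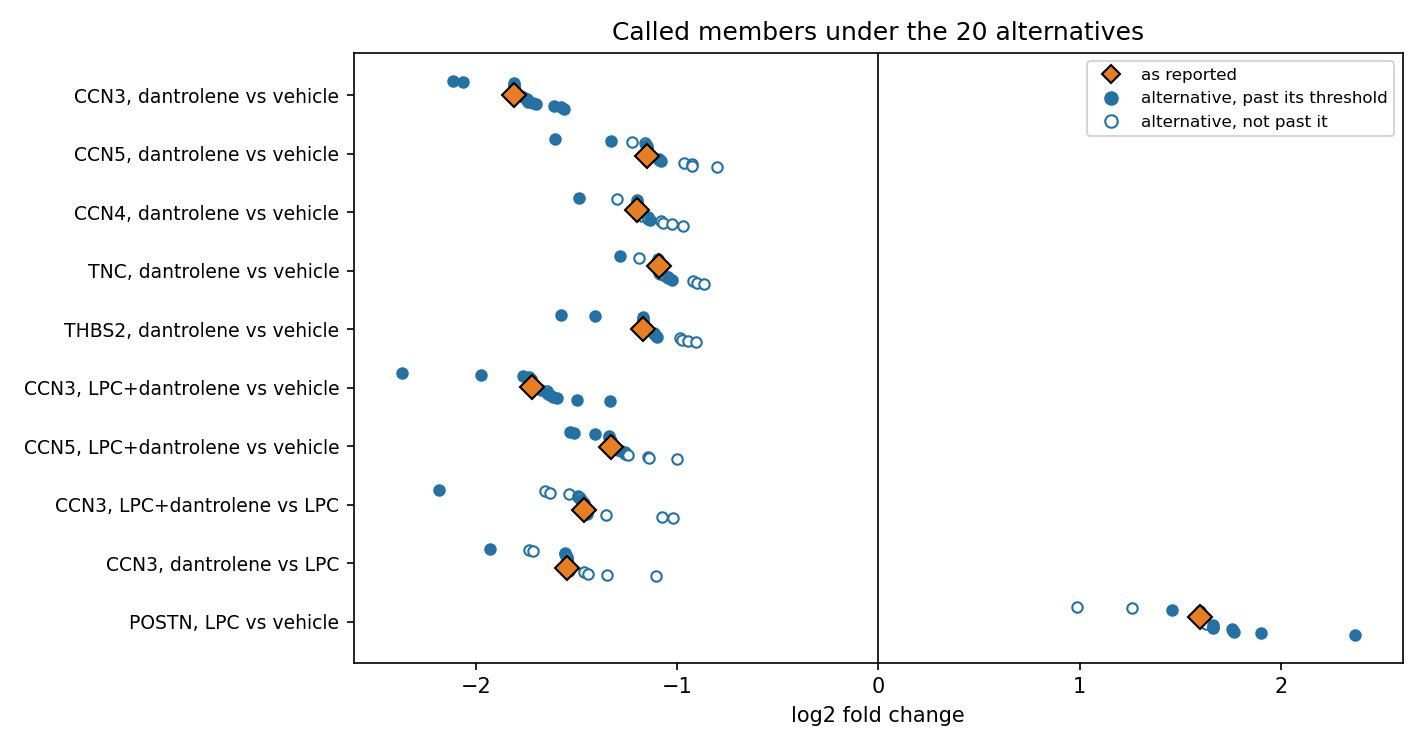
Log2 fold change of each call among the 10 genes (x axis) as reported and under the 20 alternatives, where filled points are past the threshold and open ones are not. CCN3 with dantrolene is filled throughout, CCN3 against LPC is mostly open, and no point crosses 0.

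Other genes of the same pathway were followed in 3 lists of 20. Of other matricellular genes, 17 could be tested (CCN6, TNN and TNR had too few counts). With dantrolene 5 were called lower and none higher, beside 1.26% of all tested genes lower and 7.54% higher. The median log2 fold change was −0.65 over the list, beside −0.11 over all tested genes. The 5 called lower were SPP1 (osteopontin, −1.51, adjusted p = 0.00108), TGFBI (a collagen-binding protein induced by TGF-beta, −1.40, adjusted p = 0.00171), CCN2 (connective tissue growth factor, −1.34, adjusted p = 0.00942), MGP (matrix Gla protein, an inhibitor of calcification, −1.28, adjusted p = 0.0211) and THBS4 (thrombospondin-4, −1.19, adjusted p = 0.0293). CCN2 fell from 3072 ± 1032 CPM to 1216 ± 571, with ranges apart, and SPP1 from 29.6 ± 6.57 to 10.4 ± 2.87. With LPC 0 of the 17 were called by edgeR or DESeq2, and 1 was lower at an unadjusted p under 0.05. With LPC+dantrolene 4 were lower: MGP (−1.39), CCN2 (−1.22), SPP1 (−1.10) and TGFBI (−1.01), with adjusted p values from 0.0126 to 0.0390, beside 0.900% of all tested genes. Without LPC+dantrolene replicate 2, 6 were lower in that comparison, beside 2.89% of all genes tested in that fit. In the same fit 2 were lower in LPC+dantrolene compared to LPC, beside 0.641% of all genes tested. In the other 4 comparisons 0 were called by either tool, with 4 lower at an unadjusted p under 0.05 both in LPC+dantrolene and in dantrolene compared to LPC, and 0 in the remaining ones.

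Receptors and partners through which cells bind these proteins were tested for 16 of 20 genes (ITGB6 and CD36 had too few counts, and SDC4 and LRP1 were not matched by symbol). With LPC 3 of the 16 were called higher and none was called lower, beside 8.54% of all tested genes higher and 0.144% lower. The 3 were ITGB8, a subunit of an integrin that activates TGF-beta, from 4.70 ± 1.28 to 13.9 ± 3.86 CPM (log2 fold change 1.56, adjusted p = 0.00254); ITGAV, the alpha V integrin subunit, from 68.8 ± 24.4 to 163 ± 22.3 CPM (1.25, adjusted p = 0.00602); and DDR2, a collagen receptor kinase, from 49.6 ± 10.0 to 106 ± 9.81 CPM (1.10, adjusted p = 0.0189). The 3 genes had LPC and vehicle ranges apart. With dantrolene and with LPC+dantrolene 0 of the 16 were called by edgeR or DESeq2; at an unadjusted p under 0.05, 3 were higher and 1 lower with dantrolene, and 1 higher and 2 lower with LPC+dantrolene. For ITGB8 the interaction was called and negative (−1.75, adjusted p = 0.0390), a call that held in 8 of 19 alternatives. Without LPC+dantrolene replicate 2, that call was lost, and compared to vehicle 3 of the 16 were higher with LPC+dantrolene, ITGB8 (adjusted p = 0.00207), ITGAV (adjusted p = 0.00841) and DDR2 (adjusted p = 0.0157), and 2 were lower. In that fit 12.6% of all genes tested were higher and 2.89% lower.

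Among 20 regulators of TGF-beta and mechanical signalling, ROCK1 and ROCK2, which encode kinases that drive actomyosin contraction, were higher in each treated group compared to vehicle. ROCK1 went from 18.0 ± 4.11 CPM in vehicle to 82.3 ± 9.84 with LPC, 68.4 ± 41.7 with dantrolene and 60.5 ± 31.7 with LPC+dantrolene, log2 fold changes of 2.19, 1.93 and 1.75. TGFBR1, the type I TGF-beta receptor, was higher with LPC (1.92, adjusted p = 4.0e-05) and with dantrolene (1.29, adjusted p = 0.00755). TGFB3, a TGF-beta ligand, was lower with dantrolene (−1.12, adjusted p = 0.0250). In all, 3 of 20 were higher with LPC, 3 with dantrolene and 2 with LPC+dantrolene, beside 8.54%, 7.54% and 6.23% of all tested genes, and 2 of 20 is near the last of these shares. Without LPC+dantrolene replicate 2, 5 of 20 were higher with LPC+dantrolene, where 12.6% of all tested genes were. The interaction was negative for ROCK1 (−2.37), ROCK2 (−2.45) and TGFBR1 (−2.30), with adjusted p values of 0.00191, 0.00198 and 0.00191. These were 3 of 20, beside 4.49% of all tested genes with a negative interaction. Over the alternatives, 0 to 3 genes of this list were called with a negative interaction, so these calls were not kept in all of them.

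**Figure D5:**
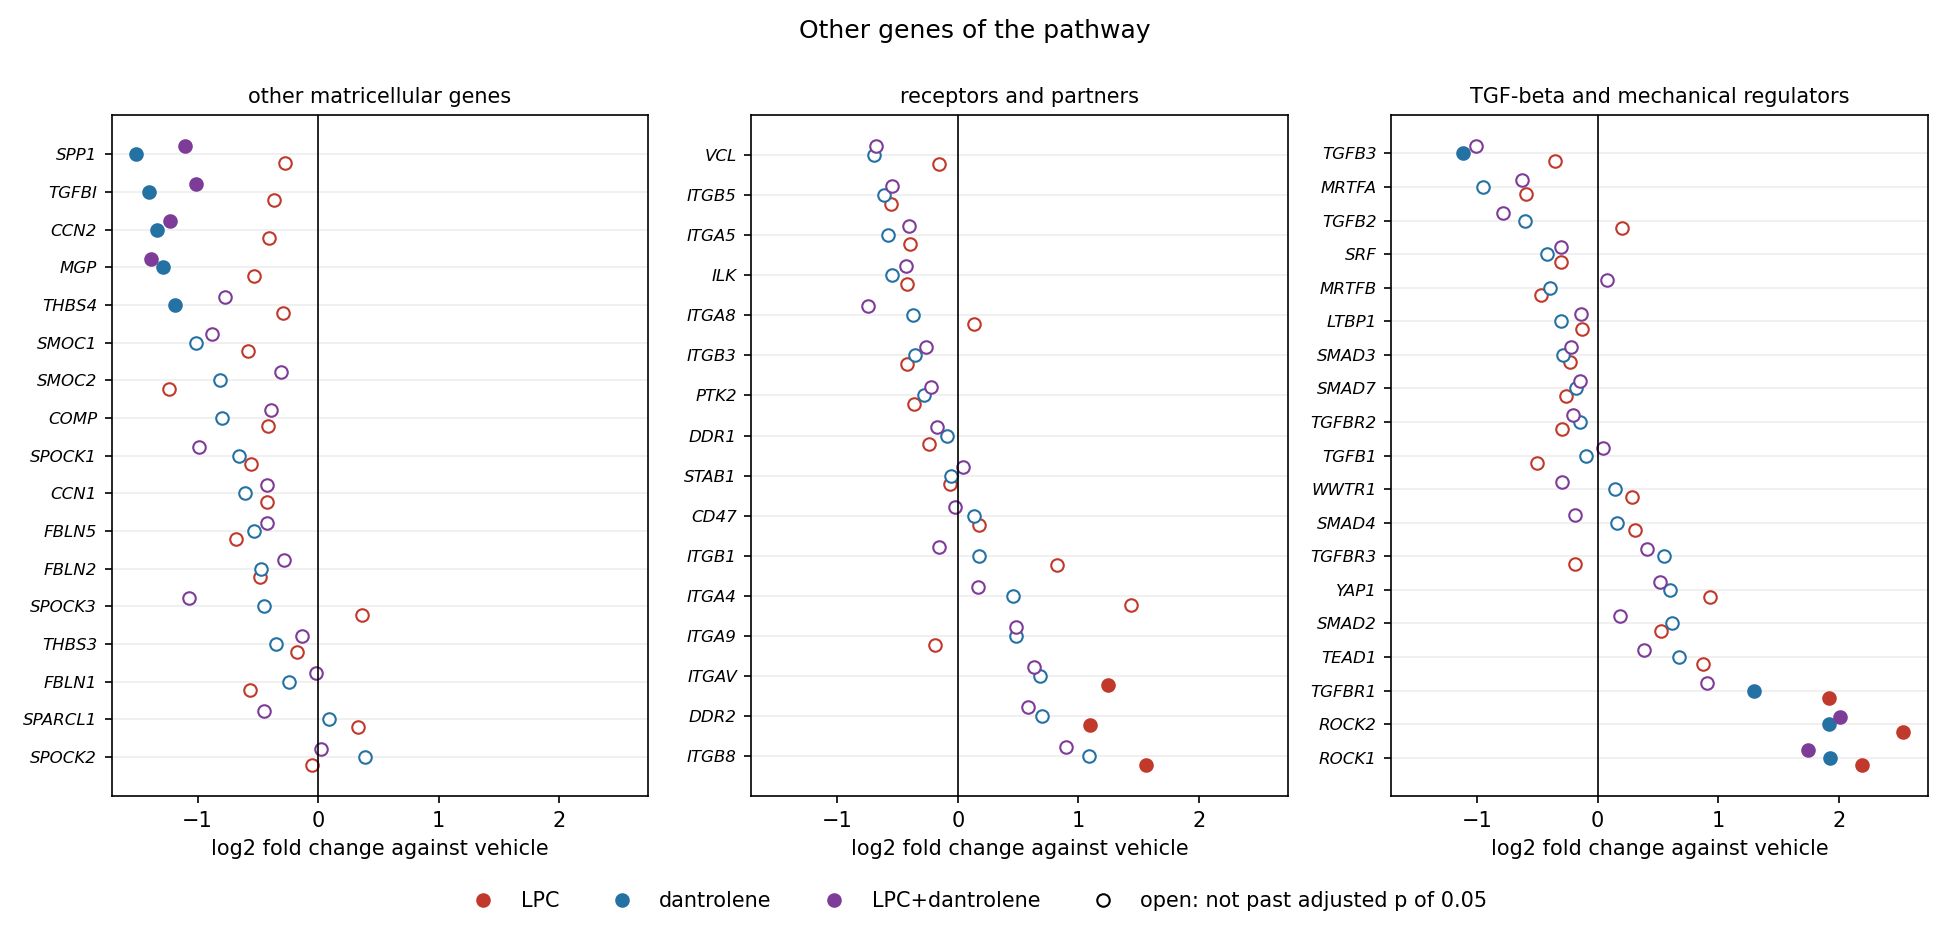
Log2 fold change against vehicle (x axis) of the genes reported from 3 lists, ordered by their value with dantrolene, for LPC (red), dantrolene (blue) and LPC+dantrolene (purple). Filled points passed an adjusted p of 0.05: the matricellular genes have filled points below 0 with dantrolene, whereas ROCK1, ROCK2 and TGFBR1 lie above 0.

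The 10 genes were compared in pairs across the 12 libraries, which share groups and isolations. Of 45 pairs, 36 had a Pearson correlation of log2 CPM above 0, with a median of 0.70. The same share and median over pairs of all tested genes were not computed, so these values are not particular to the 10 genes. The pair with the highest value was THBS2 and CCN4 (r = 0.97), and after the group means were taken out it stayed at 0.96. The lowest was POSTN and THBS1 (r = −0.52, and −0.68 without the group means). FN1 moved most closely with TNXB (0.90) and TNC (0.85) among the 10, and hardly with THBS1 (0.15). Compared with every tested gene that had a symbol, the gene most like FN1 was HSPG2 (r = 0.98), that most like SPARC was MXRA8 (0.99), and for THBS1, THBS2 and TNC these were TMEM200A (0.98), SULF2 (0.99) and LTBP2 (0.97). CCN3 was most like ACTA1 (0.97) and RHOB (0.96), CCN4 and TNXB were both most like SLIT3 (0.97 and 0.93), CCN5 was most like PKDCC (0.95), and POSTN was most like TOM1L1 and OGN (both 0.93).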

How the data were processed

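The authors sequenced poly(A) RNA from 12 libraries. Their methods name STAR, while the submitters' processing notes name HISAT2 2.0.5, with Sscrofa11.1, R 4.1.1 and DESeq2 1.32.0. The counter and its strand setting are not given in the sources used here. The deposited table holds counts per Ensembl gene that the authors adjusted for batch effects with ComBat. The paper does not name the batch, which is taken here to be the experiment (isolation). The values are whole numbers that were not scaled for library size. That adjustment used degrees of freedom that no test below counts, so p-values can be too small. Tables of the authors' own comparisons, which hold mean signal, log2 fold changes, standard errors, statistics and p-values, were not used.

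Samples were grouped by the labels. Counts were tested with edgeR 4.0.16 (limma 3.58.1, R 4.3.3): filterByExpr by group, TMM factors, a quasi-likelihood fit over all 12 libraries with group as the only term, 7 comparisons, Benjamini-Hochberg adjustment over the 13216 genes tested and a threshold of 0.05. CPM are TMM-scaled, and log2 CPM use a prior count of 2. Differences within an isolation are between log2 CPM, while fold changes come from the fit. Ranges were called apart when no library of one group reached the other. The procedure was tested on simulated data. Gene symbols came from the table for 10923 tested genes and from a table of gene names for 572. Levels were not compared between genes, as transcript lengths were not used here.

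Replicate numbers pair the samples, since the labels and methods give the same isolation for the same number. The correlation of deviations from the group means within an isolation was −0.54 to 0.21 (median −0.15), and between isolations and groups −0.25 to 0.45 (median 0.11). These values follow an adjustment that itself takes out isolation means, if the batch was the isolation. No library was a duplicate of another of its group (chi-square per gene between replicates of 36.1 to 225). Pairs from different groups were not checked in this way.

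Alternatives were DESeq2 1.42.0, RLE size factors, library totals alone, a block for isolation, a fit of the compared groups only, no filter, a minimum of 10 counts per library, a threshold of 0.1 and each library left out. The 10 genes and the 3 lists were chosen with earlier results of these data known. All 10 genes are named. From each list up to 4 called genes per comparison were named by adjusted p, and THBS4 as the remaining one of 5 was added after its values were seen. The 2 genes most like each of the 10 were taken by Pearson's r. The result of 1 gene of the lists is not reported here.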

Additional observations from a re-analysis of the deposited data

How the results depend on the processing

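Across 1390 values of the 10 genes under an alternative, no value that was called as reported or under the alternative changed sign, 65 lost and 19 gained a call, and 42 uncalled values changed sign. With LPC compared to vehicle, DESeq2 called 0 of the 10 genes higher in place of 1. With dantrolene compared to vehicle, 5 genes were lower as reported, 3 with DESeq2, 1 with library totals alone and 1 with the isolation as a block. With LPC+dantrolene compared to vehicle, 2 genes were lower as reported and 1 with DESeq2 or with only these groups fitted. With no filter, with at least 10 counts in every sample or at a threshold of 0.1, THBS2 was called lower as well. In the same 3 settings 1 gene (POSTN) was called higher. For LPC+dantrolene and for dantrolene compared to LPC, the 1 gene called lower (CCN3) became 0 with DESeq2, RLE size factors, library totals alone, only the groups compared and the isolation as a block. The block changed no other call among the 10 genes. Leaving out 1 library at a time gave 0 to 1 gene higher with LPC, 0 to 1 higher and 1 to 5 lower with dantrolene, 0 to 1 higher and 1 to 6 lower with LPC+dantrolene, 0 to 3 lower for LPC+dantrolene compared to LPC, 0 to 1 lower for dantrolene compared to LPC, and 0 to 1 with a negative interaction. Of other matricellular genes, 2 to 6 were lower with dantrolene and 0 to 6 with LPC+dantrolene over all alternatives. Receptors raised by LPC numbered 0 to 5. ROCK1 kept its call against vehicle in all 20 alternatives for each treated group. The interaction could not be fitted with only the groups compared, as it uses all 4. With library totals alone, the share of all genes called lower with dantrolene was 0.462% in place of 1.26%. The cause of these changes was not tested. With 3 isolations per group the intervals of the log2 fold change were wide, and the effect of depth on them was not tested.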

Other observations

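Among the markers used to check the cells, LUM, which encodes the collagen-binding proteoglycan lumican, was higher in all 3 treated groups compared to vehicle. It went from 108 ± 34.8 CPM (SD, n = 3) in vehicle to 276 ± 122 with LPC, 326 ± 46.0 with dantrolene and 277 ± 102 with LPC+dantrolene, with ranges apart from vehicle in each comparison and log2 fold changes of 1.35, 1.59 and 1.35 (edgeR, adjusted p = 0.00351, 0.000608 and 0.00420). It was the 1 marker of 10 for fibroblasts and interstitial cells that was called in these comparisons. Over the alternatives its call was kept in 18, 20 and 19 of 20. DES was at 582 ± 254 CPM in vehicle, 489 ± 200 with LPC, 237 ± 105 with dantrolene and 188 ± 97.9 with LPC+dantrolene, and was called lower in both dantrolene groups, with log2 fold changes of −1.30 and −1.63 (edgeR, adjusted p = 0.0117 and 0.00114). Both groups overlapped vehicle, and with LPC+dantrolene DES was lower in 2 of 3 isolations. Over the alternatives, 0 to 3 myofibroblast and smooth muscle markers were called lower with dantrolene, so the DES call there was not kept in all.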
